A study of Mus musculus with 9 samples.

Results

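The 44 genes described here carry out DNA replication and the S phase of the cell cycle. They were named by symbol, with no measured value in the rule, though with earlier results of these data known, and they cover origin licensing, the replicative helicase, the polymerases and primase, the sliding clamp and Okazaki fragment enzymes, nucleotide supply, the copying of chromatin and DNA methylation, and the switch that starts S phase. Of the 17305 gene symbols named on the array, 43 were members, and Gins1 had no probe named here. All 43 passed the filter on dim probes and were tested among 21456 features, and 42 were well above background on all 9 arrays. The exception was Prim2, which reached that level on 2 of the 3 hCA-Notumor arrays.

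Expression was measured on Agilent 1-colour arrays in colonic mucosa of ICR mice that the labels call normal, with 3 arrays in each of 3 groups. The hCA-Notumor group had eaten a diet with 3% calcium and bore no tumors, the hCA-Tumor group had eaten the same diet and bore tumors, and the DMH group had eaten a normal diet with 1.24% calcium. All 3 groups had been injected under the skin with the colon carcinogen dimethylhydrazine (DMH), at 20 mg/kg each week over 20 weeks, so every comparison is among carcinogen-treated mice. The hCA groups were separated by an outcome, and the DMH group has the tumor status "control", with no word on whether its mice bore tumors. Whether each array stands for a mouse of its own is not stated, so a p-value here covers array-to-array spread, which may be technical.

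DNA replication is prepared in G1, when the origin recognition complex, Cdc6 and Cdt1 load the MCM helicase ring onto origins, and Gmnn (geminin) holds Cdt1 back once S phase has begun. Cyclin E with its kinase, Cdc7 and the helicase partners Cdc45 and GINS then switch the ring on, and primase, polymerases, the clamp Pcna and its loader copy both strands while ribonucleotide reductase and thymidylate enzymes supply the nucleotides. In the colon this happens in the dividing cells of the lower crypt. Many of these genes are transcribed by E2F factors around the start of S phase, whereas genes of mitosis are transcribed later, through CHR promoter elements bound by the DREAM and MuvB complexes.

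The promoters of the members were set beside those of a list of 30 mitosis genes, which act in the next phase of the cell cycle. RefSeq windows of assembly GRCm38.p6, from 250 bases before to 50 bases after each transcription start, were matched for 37 of the 44 members. Ccne2, Gins1, Gins2, Gmnn, Mcm4, Pole and Prim2 were not matched. The E2F words searched were TTTCCCGC, TTTCGCGC, TTTGCCGC and TTTGGCGC on both strands, and they may overlap each other. At least 1 of these words stood in 14 of the 37 members (37.8%), in 1 of 26 mitosis genes (3.85%) and in 704 of 27025 genes of the whole table (2.6%). The CHR words TTTGAA and TTCGAA, on both strands, stood in 7 of 37 members (18.9%), in 19 of 26 mitosis genes (73.1%) and in 21.7% of all genes. The word CCAAT, on both strands, stood in 59.5% of the members, 73.1% of the mitosis genes and 41.1% of all genes. Among genes with a single window the E2F words stood in 10 of 31 members (32.3%) and in 2.32% of all genes. A match describes the letters of the window and is neither a shown binding site nor a cause of a difference. Stretches of 250 bases directly before the start are shown 5′ to 3′ on the gene's own strand, with the E2F words of the members and the CHR word of Ccnb2 in capitals and CCAAT left in lower case. Mcm5 and Mcm6, helicase subunits higher in hCA-Notumor than in hCA-Tumor mucosa, hold E2F words that overlap. Cdc6, the origin loading factor, holds 1. Rrm2, which was lower in both hCA groups than in DMH mucosa, holds no E2F word. Ccnb2 (cyclin B2), a mitosis gene, holds a CHR word and no E2F word.
Mcm5, chr8:75109259-75109508, plus strand: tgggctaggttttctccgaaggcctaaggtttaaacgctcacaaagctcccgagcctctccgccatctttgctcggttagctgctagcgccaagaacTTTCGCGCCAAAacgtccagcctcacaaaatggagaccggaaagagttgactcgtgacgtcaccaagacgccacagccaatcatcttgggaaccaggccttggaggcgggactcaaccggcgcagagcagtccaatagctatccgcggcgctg
Mcm6, chr1:128359706-128359955, minus strand: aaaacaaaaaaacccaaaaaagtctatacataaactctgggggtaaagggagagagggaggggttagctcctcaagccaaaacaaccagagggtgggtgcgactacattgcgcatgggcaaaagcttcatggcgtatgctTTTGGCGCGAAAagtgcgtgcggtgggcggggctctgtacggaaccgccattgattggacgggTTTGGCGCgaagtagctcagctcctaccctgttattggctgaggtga
Cdc6, chr11:98907901-98908150, plus strand: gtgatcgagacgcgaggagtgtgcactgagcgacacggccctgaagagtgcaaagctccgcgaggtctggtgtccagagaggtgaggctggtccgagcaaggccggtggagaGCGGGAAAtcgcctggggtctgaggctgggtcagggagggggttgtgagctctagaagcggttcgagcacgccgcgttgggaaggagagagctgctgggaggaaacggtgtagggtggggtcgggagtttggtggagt
Rrm2, chr12:24708004-24708253, plus strand: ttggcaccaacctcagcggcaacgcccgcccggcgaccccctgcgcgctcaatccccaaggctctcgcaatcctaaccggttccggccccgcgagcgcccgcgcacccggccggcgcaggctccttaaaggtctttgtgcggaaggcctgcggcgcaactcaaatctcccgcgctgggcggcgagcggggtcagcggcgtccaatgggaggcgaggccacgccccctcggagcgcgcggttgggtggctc
Ccnb2, chr9:70421555-70421804, minus strand: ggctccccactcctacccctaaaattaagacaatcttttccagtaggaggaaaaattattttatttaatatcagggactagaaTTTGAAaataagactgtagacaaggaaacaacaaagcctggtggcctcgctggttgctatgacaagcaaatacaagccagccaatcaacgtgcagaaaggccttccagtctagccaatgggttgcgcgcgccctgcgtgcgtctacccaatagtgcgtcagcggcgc
The first base of the overlapping E2F words lay 153 and 149 bases before the start in Mcm5, and 110 and 106 bases before it in Mcm6, with a further word at 47 bases. The word of Cdc6 lay 138 bases and the CHR word of Ccnb2 167 bases before the start.

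Values are log2 signals minus the array's 75th percentile, so 0 marks that percentile. That percentile was a signal of 534.2 to 772.6, and 61.05% to 73.73% of the 41174 probes of an array were well above background. The arrays lay on 3 slides: slide 1 held the hCA-Notumor arrays and DMH replicate 1, slide 2 held hCA-Tumor replicates 1 and 2 and DMH replicates 2 and 3, and slide 3 held hCA-Tumor replicate 3 alone. DMH replicate 1 and hCA-Tumor replicate 3 stood apart from their groups: their deviations from the group means correlated at 0.57 across features, while DMH replicate 1 correlated at -0.56 with hCA-Tumor replicate 1. All 15 measured colon epithelium markers were well above background on every array, and so were all 10 smooth muscle markers, in tissue labelled mucosa. The smooth muscle markers together had a summed level of 8.85 to 9.17 in hCA-Notumor, 9.36 to 9.74 in hCA-Tumor and 7.96 to 8.74 in DMH mucosa (log2 of the summed scaled signals). Epithelium markers ran from 10.88 to 11.01 in hCA-Notumor, from 10.79 to 10.91 in hCA-Tumor and from 10.68 to 10.90 in DMH mucosa. B and plasma cell markers (9 measured, all well above background) ran from 6.49 to 6.56, from 5.86 to 6.19 and from 6.47 to 6.56 in the same order of groups, and adipocyte markers (7 measured, 5 to 7 of them well above background on each array) from 2.31 to 3.11, from 3.14 to 3.96 and from 5.32 to 5.47. The part of these cell types in the results was not tested, and in such bulk samples fewer cells of a type and less RNA per cell cannot be told apart.

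Differences are in log2 units with the standard error of the fit (limma, all 9 arrays without weights or a block, the 9-array fit), and a gene passed the test at an adjusted p under 0.05 over all features. The first comparison asks how mucosa of mice that stayed free of tumors on the calcium-rich diet differed from mucosa on the normal diet. In hCA-Notumor against DMH mucosa 9 of 43 members were lower and 4 higher, that is 13 in all, against a background of 35.6% of all features called (17.1% lower, 18.6% higher). The count of lower members lies near its share, and that of higher members lies below its share. Lower were Rrm2, Pola1, Prim2, Cdc7, Cdc45, Mcm10, Rfc5, Rpa1 and Ccne1, and higher were Ccne2, Gmnn, Gins2 and Mcm6. The arrays of the groups did not overlap for 11 lower members, near the 24% of all features, and for 8 higher members, below the 33.9% of all features. The median member differed by -0.02 and the median feature by 0.08. Of all calls 52.1% were higher, against 21% with the arrays centred on the epithelium markers (an alternative added after seeing the data, which moved the median of all features to -0.14) and 29.6% with the deposited normalized values. Apart from Prim2, the called changes were small, from 1.12-fold to 1.63-fold. A fit with slide as a block called 3 members lower (Rrm2, Mcm10 and Rfc5) and 1 higher (Ccne2), with 27.4% of all features called. The counts without 1 array ran from 2 to 9 lower and from 2 to 7 higher. The lowest counts came without DMH replicate 2 (2 lower, 2 higher), and fewer were also left without hCA-Notumor replicate 1 (4 and 2), hCA-Notumor replicate 2 (4 lower), hCA-Notumor replicate 3 (2 higher) or DMH replicate 3 (4 and 2), whereas without DMH replicate 1 there were 7 higher. In the same comparison 7 of 10 smooth muscle markers were higher (median difference 0.71), and 7 of 7 adipocyte (-3.43), 5 of 8 myeloid (-0.58) and 1 of 9 B and plasma cell markers (-0.14) were lower. The myeloid marker S100a8 was well above background on 0 of 3 hCA-Notumor arrays. Of the 15 epithelium markers 6 were higher and 1 lower (0.16).

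The second comparison asks the same of mucosa from mice that bore tumors on the 3% diet. In hCA-Tumor against DMH mucosa 15 members were lower and 1, Gmnn, was higher, against 37.3% of all features called (15.2% lower, 22.1% higher). The lower members came from the helicase (Mcm3, Mcm4, Mcm5, Mcm6, Cdc45 and Gins2), the clamp and Okazaki enzymes (Pcna, Rfc3 and Fen1), nucleotide supply (Rrm2 and Tk1), and Cdc6, Pola2, Uhrf1 and Ccne2. The groups did not overlap for 22 lower members, against 20.3% of all features, and for 4 higher members, against 29.1%. The median was -0.13 over the 43 members and 0.09 over all features, and the called changes ran from 1.15-fold to 1.54-fold. A fit with slide as a block called 12 lower and 3 higher, with 43.7% of all features called. Its lower calls included Mcm2 and Pole2, which the 9-array fit did not call, and left out Mcm4, Mcm5, Mcm6, Rfc3 and Ccne2. The deposited normalized values gave 6 lower (Cdc6, Cdc45, Gins2, Pola2, Fen1 and Rrm2), with 13.3% of all features called. Leaving out 1 array gave 10 to 16 lower calls, the fewest without hCA-Tumor replicate 3, and 0 to 3 higher calls, 0 without hCA-Tumor replicate 2 or DMH replicate 2 and 3 without DMH replicate 1. Centring on the epithelium markers moved the median of all features to 0.24, and 4 members were lower (Cdc45, Gins2, Pola2 and Rrm2) and 3 higher (Gmnn, Orc6 and Chaf1b). Of all calls 59.3% were higher, against 83.3% with that centring, 44.9% with each array centred on its median and 39.3% with the deposited normalized values. Among the cell type markers in hCA-Tumor against DMH mucosa, 10 of 10 smooth muscle markers were higher (median difference 1.20), and 6 of 7 adipocyte (-3.20), 7 of 8 myeloid (-0.80) and 7 of 9 B and plasma cell markers (-0.64) were lower. Of the 15 epithelium markers 3 were higher and 3 lower (0.05).

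The third comparison sets mucosa without and with tumors under the same diet side by side, and also tests whether the differences from DMH differ between both. In hCA-Notumor against hCA-Tumor mucosa 14 members were higher and 3 lower, against 47.7% of all features called (20% higher, 27.8% lower). Higher were Ccne2, Gins2, Mcm3, Pola2, Cdc6, Fen1, Mcm6, Pcna, Mcm5, Dnmt1, Cdc45, Uhrf1, Pold1 and Tk1, and lower were Pola1, Ccne1 and Rpa1. Groups did not overlap for 16 higher members, against 25.2% of all features, and for 7 lower members, against 33.9%. The median was 0.06 over the members and -0.01 over all features, and called changes ran from 1.13-fold to 1.81-fold. The count of higher members depended on the scaling: with arrays centred on the epithelium markers the median of all features moved to -0.38, and 2 members were higher (Ccne2 and Gins2) and 22 lower, Mcm5, Cdc45, Pold1, Tk1, Uhrf1 and Dnmt1 then having a difference below 0. Relative to the median of all features the median member stood 0.08 higher under both scalings. That could not change, since the centring subtracts the same value from all features of an array. Epithelium centring called 59.2% of all features, against 47.7% in the 9-array fit. Of all calls 41.8% were higher, against 10.1% with that centring and 54.3% with each array centred on its median, where 18 members were higher; with the deposited normalized values 4 were (Ccne2, Gins2, Mcm3 and Pola2). The hCA groups shared no slide, so in the 9-array fit slide and group cannot be told apart in this comparison. A fit with slide as a block, which links the hCA groups only through DMH arrays, called 8 higher and 2 lower (Orc6 and Mcm10). It called 31.8% of all features. Leaving out 1 array gave 12 to 15 higher and 1 to 4 lower calls, the single lower call coming without hCA-Notumor replicate 2, hCA-Tumor replicate 1 or hCA-Tumor replicate 2. The B and plasma cell markers were higher in hCA-Notumor than in hCA-Tumor mucosa for 6 of 9 markers, 3 of 10 smooth muscle markers were lower, and of 8 myeloid markers 2 were higher and 2 lower. Of the 15 epithelium markers 6 were higher and 1 lower, with differences from -0.89 to 1.75. The centring uses the mean of their log2 levels, not the summed level given above, and so depends on such markers. Both differences from DMH share the 3 DMH arrays, so they are given side by side and not correlated.

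**Figure D1:**
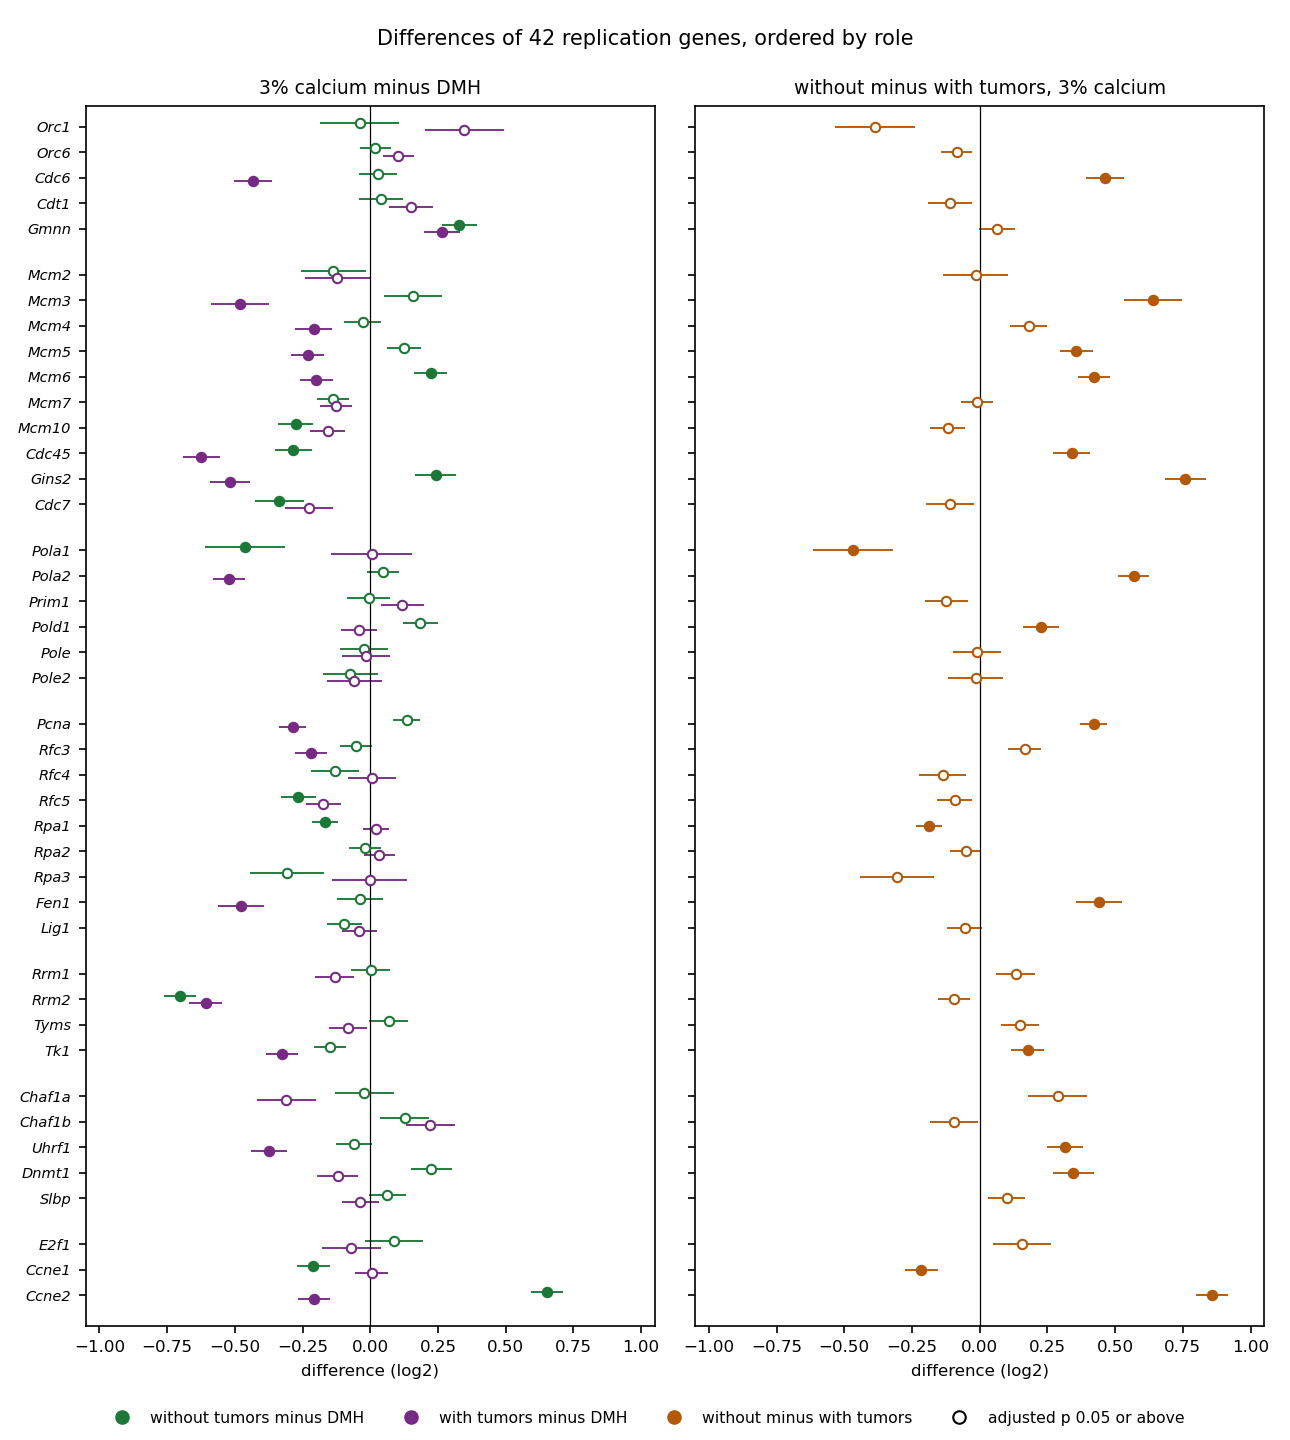
Differences of 42 members in log2 units with their standard errors (bars), ordered by role from origin licensing (top) to the start of S phase (bottom), with Prim2 left out for its wide range. Filled points passed the test. In the left panel Rrm2 lies far to the left for both hCA groups, and in the right panel Ccne2 and Gins2 lie furthest to the right.

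Origin licensing is described first. Of its 5 members 1 was higher in hCA-Notumor against DMH mucosa, 1 was higher and 1 lower in hCA-Tumor against DMH mucosa, and 1 was higher in hCA-Notumor against hCA-Tumor mucosa. Over all features 18.6%, 22.1% and 20% were higher in these comparisons, and 15.2% were lower in hCA-Tumor against DMH mucosa. The counts of this role lie near those shares. Cdc6, the ATPase that brings the helicase to the origin, had a level of -1.66, -1.74 and -1.75 in hCA-Notumor mucosa, -2.13, -2.31 and -2.10 in hCA-Tumor mucosa and -1.76, -1.81 and -1.67 in DMH mucosa. The hCA-Tumor arrays were the lowest 3, while the hCA-Notumor and DMH arrays overlapped. Cdc6 fell by 0.43 in hCA-Tumor against DMH mucosa (adjusted p = 0.00292) and was 0.46 ± 0.07 (SE) higher in hCA-Notumor than in hCA-Tumor mucosa (adjusted p = 0.00152). Both passed with slide as a block, at -0.48 and 0.52. Gmnn, the geminin inhibitor that stops origins from being licensed again, measured 2.20, 2.06 and 2.30 in hCA-Notumor mucosa, 2.13, 2.15 and 2.09 in hCA-Tumor mucosa and 1.87, 1.84 and 1.86 in DMH mucosa. Every hCA array exceeded every DMH array. Gmnn rose by 0.33 ± 0.07 (SE) in hCA-Notumor mucosa (adjusted p = 0.00739) and by 0.27 ± 0.07 (SE) in hCA-Tumor mucosa (adjusted p = 0.0163), both against DMH, and was the only member higher in hCA-Tumor mucosa in the 9-array fit. The first call was lost with the slide as a block (adjusted p = 0.0619), the second without hCA-Tumor replicate 2 or DMH replicate 2 (adjusted p between 0.0505 and 0.0566), each array being left out on its own here and below. Cdt1, the partner of Cdc6 and target of geminin, measured 1.50, 1.25 and 1.45 in hCA-Notumor mucosa, 1.53, 1.49 and 1.50 in hCA-Tumor mucosa and 1.24, 1.42 and 1.41 in DMH mucosa, with hCA-Tumor above DMH arrays and hCA-Notumor overlapping both, and none of its differences passed in the 9-array fit. Orc1 and Orc6, subunits of the origin recognition complex, did not pass in any comparison in the 9-array fit either, though Orc6 was higher in hCA-Tumor against DMH mucosa without DMH replicate 1 and Orc1 lower in hCA-Notumor against hCA-Tumor mucosa without hCA-Notumor replicate 3. Their 9-array differences ran from -0.39 (Orc1, hCA-Notumor minus hCA-Tumor) to 0.35 (Orc1, hCA-Tumor minus DMH).

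The 10 measured members of the helicase and its activation held 6 of the 15 lower calls of hCA-Tumor against DMH mucosa and 5 of the 14 higher calls of hCA-Notumor against hCA-Tumor mucosa. Of the 6 subunits of the MCM ring 1 was higher in hCA-Notumor against DMH mucosa, 4 were lower in hCA-Tumor against DMH mucosa and 3 were higher in hCA-Notumor against hCA-Tumor mucosa; with slide as a block 2 were lower and 1 was higher in the last 2 of these. Mcm3 measured 0.74, 0.59 and 0.67 in hCA-Notumor mucosa, 0.09, 0.18 and -0.18 in hCA-Tumor mucosa and 0.63, 0.38 and 0.51 in DMH mucosa. All hCA-Tumor arrays lay below all others, and Mcm3 differed by -0.48 ± 0.11 (SE) in hCA-Tumor against DMH mucosa (adjusted p = 0.0108). In hCA-Notumor against hCA-Tumor mucosa the difference was 0.64 (adjusted p = 0.00228), and 0.35 with the slide as a block, where it did not pass (adjusted p = 0.0677). Mcm6 measured 3.85, 3.75 and 3.84 in hCA-Notumor mucosa, 3.44, 3.35 and 3.37 in hCA-Tumor mucosa and 3.68, 3.51 and 3.57 in DMH mucosa, so that the hCA-Notumor arrays were the highest, the DMH arrays intermediate and the hCA-Tumor arrays the lowest, with no overlap. It was 0.22 ± 0.06 (SE) higher in hCA-Notumor than in DMH mucosa (adjusted p = 0.0249), fell by 0.20 in hCA-Tumor against DMH mucosa (adjusted p = 0.036) and was 0.42 higher in hCA-Notumor than in hCA-Tumor mucosa (adjusted p = 0.00114). None of these Mcm6 differences passed with the slide as a block (adjusted p = 0.233, 0.109 and 0.0742 in that order). The first was also lost without hCA-Notumor replicate 1 or 3 or DMH replicate 2 or 3 (adjusted p between 0.079 and 0.0852), and the second without hCA-Notumor replicate 1 or 3, hCA-Tumor replicate 1, 2 or 3 or DMH replicate 1 or 3 (adjusted p between 0.0521 and 0.109).

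Mcm2, another subunit of the ring, measured 0.73, 0.57 and 0.66 in hCA-Notumor mucosa, 0.75, 0.69 and 0.57 in hCA-Tumor mucosa and 0.51, 0.92 and 0.94 in DMH mucosa. DMH replicate 1 lay below the other DMH arrays and below every hCA array. No difference of Mcm2 passed in the 9-array fit; without DMH replicate 1 it passed against DMH as lower in both hCA groups, and with the slide as a block it fell by 0.21 in hCA-Tumor against DMH mucosa (adjusted p = 0.0441). Mcm5, whose promoter is shown above, measured 1.71, 1.52 and 1.59 in hCA-Notumor mucosa, 1.30, 1.27 and 1.19 in hCA-Tumor mucosa and 1.47, 1.49 and 1.50 in DMH mucosa. Its groups did not overlap, with hCA-Notumor highest and hCA-Tumor lowest. It was 0.36 higher in hCA-Notumor than in hCA-Tumor mucosa (adjusted p = 0.00255, and 0.0571 with the slide as a block). In hCA-Tumor against DMH mucosa Mcm5 and Mcm4 fell by 0.23 and 0.21 (adjusted p = 0.0214 and 0.0472), calls that neither kept with the slide as a block (adjusted p = 0.061 and 0.142). That of Mcm5 was lost without hCA-Tumor replicate 2 or 3 or DMH replicate 2 or 3 (adjusted p between 0.0517 and 0.0673), and that of Mcm4 without hCA-Notumor replicate 1, 2 or 3, hCA-Tumor replicate 1, 2 or 3 or DMH replicate 1 or 3 (adjusted p between 0.0602 and 0.129). Mcm7 did not pass in any comparison in the 9-array fit, with differences of -0.14, -0.13 and -0.01 in hCA-Notumor minus DMH, hCA-Tumor minus DMH and hCA-Notumor minus hCA-Tumor.

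Gins2, a subunit of the GINS complex that holds the active helicase together, measured -0.13, -0.26 and -0.19 in hCA-Notumor mucosa, -0.98, -1.04 and -0.83 in hCA-Tumor mucosa and -0.34, -0.51 and -0.45 in DMH mucosa. The 3 groups did not overlap, with hCA-Notumor highest and hCA-Tumor lowest. Gins2 fell by 0.52 in hCA-Tumor against DMH mucosa (adjusted p = 0.00175) and was 0.76 ± 0.07 (SE) higher in hCA-Notumor than in hCA-Tumor mucosa (adjusted p = 0.000232). These calls held in 24 of 24 and 23 of 23 alternatives (other processing settings and left-out arrays), with differences from -0.66 to -0.37 and from 0.39 to 0.84. In hCA-Notumor against DMH mucosa the difference of 0.24 passed narrowly (adjusted p = 0.0406); it did not with the slide as a block (adjusted p = 0.187) nor without hCA-Notumor replicate 1, 2 or 3, hCA-Tumor replicate 1 or DMH replicate 2 or 3 (adjusted p between 0.0549 and 0.13). Cdc45, the third part of the active helicase, measured -2.34, -2.33 and -2.30 in hCA-Notumor mucosa, -2.64, -2.65 and -2.71 in hCA-Tumor mucosa and -2.18, -2.01 and -1.93 in DMH mucosa. All DMH arrays exceeded all hCA-Notumor arrays, which exceeded all hCA-Tumor arrays. Cdc45 fell by 0.28 in hCA-Notumor mucosa (adjusted p = 0.0161) and by 0.62 in hCA-Tumor mucosa (adjusted p = 0.000602), each against DMH, and was 0.34 higher in hCA-Notumor than in hCA-Tumor mucosa (adjusted p = 0.00518). The first was -0.14 with the slide as a block (adjusted p = 0.127) and was lost without hCA-Notumor replicate 1 or DMH replicate 2 (adjusted p between 0.0535 and 0.0569). With normexp background correction the 3 differences of Cdc45 were -0.14, -0.33 and 0.19, and none passed (adjusted p = 0.426, 0.0799 and 0.274).

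Mcm10, which helps the helicase fire, measured 1.08, 1.10 and 1.19 in hCA-Notumor mucosa, 1.31, 1.25 and 1.17 in hCA-Tumor mucosa and 1.50, 1.34 and 1.36 in DMH mucosa, and every DMH array exceeded every hCA array. It differed by -0.28 ± 0.06 (SE) in hCA-Notumor against DMH mucosa (adjusted p = 0.014), and by -0.37 with the slide as a block (adjusted p = 0.0112); the call was lost without hCA-Notumor replicate 1 (adjusted p = 0.0518). Cdc7, the kinase that switches the ring on, measured -1.51, -1.87 and -1.65 in hCA-Notumor mucosa, -1.58, -1.61 and -1.52 in hCA-Tumor mucosa and -1.32, -1.34 and -1.36 in DMH mucosa. The DMH arrays were again the highest 3. The difference of -0.34 ± 0.09 (SE) in hCA-Notumor against DMH mucosa (adjusted p = 0.0233) did not pass with the slide as a block (adjusted p = 0.108) nor without hCA-Notumor replicate 3 or DMH replicate 2 or 3 (adjusted p between 0.0586 and 0.0674). A second kept probe of Cdc7 differed by only -0.03 there and by -0.47 in hCA-Tumor against DMH mucosa, where the brighter probe differed by -0.23, so that the direction between the hCA groups turned with the probe (0.44 against -0.11).

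**Figure D2:**
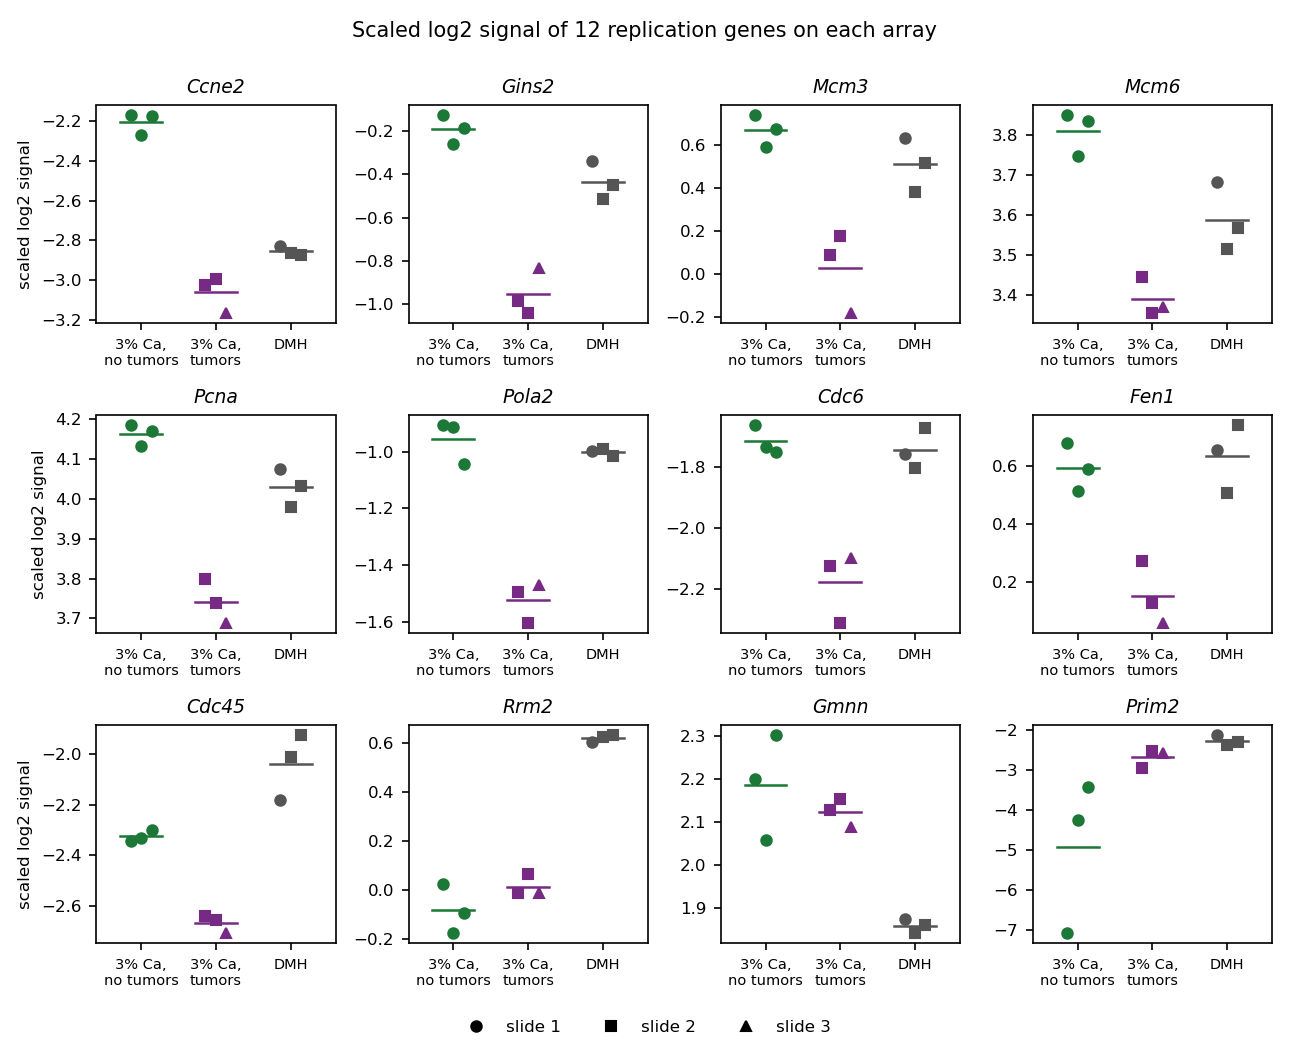
Scaled log2 signal (vertical axis) of 12 members on each array, with hCA-Notumor on the left, hCA-Tumor in the middle and DMH on the right. Lines are group means and symbols mark the slide. Ccne2 and Gins2 separate all 3 groups, Rrm2 and Gmnn separate both hCA groups from DMH, and Prim2 has 1 hCA-Notumor array at -7.07.

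Among the 7 polymerase and primase members 2 were lower in hCA-Notumor and 1 in hCA-Tumor mucosa against DMH, beside 17.1% and 15.2% of all features. Pola2, the regulatory subunit of polymerase alpha, measured -0.91, -0.91 and -1.04 in hCA-Notumor mucosa, -1.49, -1.60 and -1.47 in hCA-Tumor mucosa and -1.0, -0.99 and -1.02 in DMH mucosa. The hCA-Tumor arrays were the lowest 3, and the other groups overlapped. Pola2 fell by 0.52 in hCA-Tumor against DMH mucosa (adjusted p = 0.000638), a call made in 24 of 24 alternatives, and was 0.57 ± 0.06 (SE) higher in hCA-Notumor than in hCA-Tumor mucosa (adjusted p = 0.00027). Pola1, the catalytic subunit of the same enzyme, measured -1.25, -1.39 and -1.36 in hCA-Notumor mucosa, -0.83, -0.75 and -1.02 in hCA-Tumor mucosa and -1.22, -0.70 and -0.69 in DMH mucosa. DMH replicate 1, on the slide of the hCA-Notumor arrays, lay beside them and apart from the other DMH arrays. Pola1 differed by -0.46 from DMH mucosa and by -0.47 from hCA-Tumor mucosa in hCA-Notumor mucosa (adjusted p = 0.0462 and 0.0345), but by -0.11 and -0.02 with the slide as a block (adjusted p = 0.312 and 0.878). The first call was lost without hCA-Notumor replicate 1, 2 or 3, hCA-Tumor replicate 1 or 2 or DMH replicate 2 or 3 (adjusted p between 0.0612 and 0.144), and the second without hCA-Notumor replicate 1, 2 or 3 or hCA-Tumor replicate 1 or 2 (adjusted p between 0.0609 and 0.106).

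Prim2, the large subunit of primase, measured -7.07, -4.26 and -3.44 in hCA-Notumor mucosa, -2.96, -2.53 and -2.57 in hCA-Tumor mucosa and -2.14, -2.38 and -2.30 in DMH mucosa. The hCA-Notumor arrays were the lowest and spread far, replicate 1 lying near background. Its difference of -2.65 ± 0.82 (SE) from DMH mucosa passed narrowly (adjusted p = 0.0402); it was -0.80 with normexp background correction, did not pass with the slide as a block (adjusted p = 0.172) and was lost without hCA-Notumor replicate 2, hCA-Tumor replicate 1 or 2 or DMH replicate 1, 2 or 3 (adjusted p between 0.0608 and 0.0993). Pold1, the catalytic subunit of polymerase delta, was 0.23 higher in hCA-Notumor than in hCA-Tumor mucosa (adjusted p = 0.0235), and 0.10 with the slide as a block (adjusted p = 0.543); that call was lost without hCA-Notumor replicate 1 or 3 or hCA-Tumor replicate 1 or 3 (adjusted p between 0.0501 and 0.0761). Prim1, the small primase subunit, and Pole and Pole2 of polymerase epsilon had differences between -0.12 and 0.12, none of which passed in the 9-array fit. With the slide as a block Pole2 passed as lower in hCA-Tumor against DMH mucosa and as higher in hCA-Notumor against hCA-Tumor mucosa.

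Of the 9 members of the clamp, its loader, RPA and the Okazaki enzymes 2 were lower in hCA-Notumor and 3 in hCA-Tumor mucosa against DMH, and 2 were higher and 1 lower in hCA-Notumor against hCA-Tumor mucosa. Over all features 17.1% and 15.2% were lower against DMH, and 20% were higher and 27.8% lower between the hCA groups. Pcna, the ring that ties the polymerases to DNA, measured 4.18, 4.13 and 4.17 in hCA-Notumor mucosa, 3.80, 3.74 and 3.69 in hCA-Tumor mucosa and 4.07, 3.98 and 4.03 in DMH mucosa. All hCA-Notumor arrays exceeded all DMH arrays, which exceeded all hCA-Tumor arrays. Pcna fell by 0.29 in hCA-Tumor against DMH mucosa (adjusted p = 0.00358) and was 0.42 ± 0.05 (SE) higher in hCA-Notumor than in hCA-Tumor mucosa (adjusted p = 0.000463), and both passed with the slide as a block at -0.24 and 0.33. Fen1, the nuclease that trims Okazaki fragments, measured 0.68, 0.51 and 0.59 in hCA-Notumor mucosa, 0.27, 0.13 and 0.06 in hCA-Tumor mucosa and 0.65, 0.51 and 0.74 in DMH mucosa. Here too the hCA-Tumor arrays were the lowest 3, while hCA-Notumor and DMH overlapped. Fen1 fell by 0.48 in hCA-Tumor against DMH mucosa (adjusted p = 0.00414); in hCA-Notumor against hCA-Tumor mucosa it was 0.44 higher (adjusted p = 0.00426), a call lost with the slide as a block (adjusted p = 0.13).

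Rfc5, a clamp loader subunit, measured 1.91, 1.82 and 1.96 in hCA-Notumor mucosa, 2.0, 2.03 and 1.93 in hCA-Tumor mucosa and 2.22, 2.21 and 2.05 in DMH mucosa, with the DMH arrays highest. It fell by 0.27 in hCA-Notumor against DMH mucosa (adjusted p = 0.0169) and by 0.32 with the slide as a block; the call was lost without hCA-Notumor replicate 2 or DMH replicate 2 (adjusted p between 0.0558 and 0.0619). Rpa1, which coats single-stranded DNA, measured 1.14, 1.07 and 1.13 in hCA-Notumor mucosa, 1.33, 1.33 and 1.23 in hCA-Tumor mucosa and 1.24, 1.30 and 1.30 in DMH mucosa. The hCA-Notumor arrays were the lowest 3. Its differences of -0.17 from DMH and -0.19 from hCA-Tumor mucosa (adjusted p = 0.0327 and 0.0152) did not pass with the slide as a block (adjusted p = 0.138 and 0.135). The first was lost without hCA-Notumor replicate 1, 2 or 3, hCA-Tumor replicate 1 or DMH replicate 2 or 3 (adjusted p between 0.0519 and 0.102), and the second without hCA-Tumor replicate 1 or 2 (adjusted p between 0.0562 and 0.057). Rfc3, a further loader subunit, fell by 0.22 in hCA-Tumor against DMH mucosa (adjusted p = 0.0248, and 0.0577 with the slide as a block); the call was lost without hCA-Tumor replicate 2 or 3 or DMH replicate 3 (adjusted p between 0.0564 and 0.0834). Rfc4, Rpa2, Rpa3 and Lig1, the ligase that seals Okazaki fragments, did not pass in any comparison in the 9-array fit. Their differences ran from -0.31 (Rpa3, hCA-Notumor minus DMH) to 0.03 (Rpa2, hCA-Tumor minus DMH). Rpa3 passed as lower in hCA-Notumor mucosa against both other groups without DMH replicate 1 and with array weights.

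In nucleotide supply, Rrm2, the inducible subunit of ribonucleotide reductase, measured 0.02, -0.18 and -0.10 in hCA-Notumor mucosa, -0.01, 0.06 and -0.02 in hCA-Tumor mucosa and 0.60, 0.63 and 0.63 in DMH mucosa. Every DMH array exceeded every hCA array by more than the range of any group, and the hCA groups overlapped. Rrm2 fell by 0.70 in hCA-Notumor mucosa (adjusted p = 0.000168) and by 0.61 in hCA-Tumor mucosa (adjusted p = 0.000429), that is 1.63-fold and 1.52-fold, both against the same DMH arrays. It passed in 24 of 24 alternatives in each comparison. Rrm1, the partner subunit of the same enzyme, differed by 0.00 and -0.13 in the same comparisons, and neither passed. Tk1, the thymidine kinase of S phase, measured 2.03, 1.91 and 2.05 in hCA-Notumor mucosa, 1.87, 1.75 and 1.83 in hCA-Tumor mucosa and 2.19, 2.09 and 2.14 in DMH mucosa. The DMH arrays were the highest, above all hCA arrays. Tk1 fell by 0.32 in hCA-Tumor against DMH mucosa (adjusted p = 0.00488), and 0.31 with the slide as a block; between the hCA groups its difference of 0.18 passed narrowly (adjusted p = 0.043), not with the slide as a block (adjusted p = 0.485) nor without hCA-Notumor replicate 1 or 3, hCA-Tumor replicate 1, 2 or 3 or DMH replicate 2 or 3 (adjusted p between 0.054 and 0.139). Tyms, which makes thymidylate, measured 2.87, 2.73 and 2.83 in hCA-Notumor mucosa, 2.62, 2.57 and 2.79 in hCA-Tumor mucosa and 2.80, 2.72 and 2.71 in DMH mucosa, and the groups overlapped with no difference past the test.

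In the copying of methylation, Uhrf1, which finds hemimethylated DNA behind the fork, measured 1.42, 1.21 and 1.39 in hCA-Notumor mucosa, 1.09, 1.03 and 0.97 in hCA-Tumor mucosa and 1.38, 1.39 and 1.44 in DMH mucosa. The hCA-Tumor arrays were the lowest 3. Uhrf1 fell by 0.37 in hCA-Tumor against DMH mucosa (adjusted p = 0.00429), and was 0.32 higher in hCA-Notumor than in hCA-Tumor mucosa (adjusted p = 0.00651, and 0.0979 with the slide as a block). Dnmt1, the methyltransferase that Uhrf1 recruits, measured 1.92, 1.78 and 1.83 in hCA-Notumor mucosa, 1.58, 1.49 and 1.43 in hCA-Tumor mucosa and 1.74, 1.51 and 1.62 in DMH mucosa. The hCA-Notumor arrays were the highest 3, and hCA-Tumor and DMH arrays overlapped. Dnmt1 was 0.35 ± 0.08 (SE) higher in hCA-Notumor than in hCA-Tumor mucosa (adjusted p = 0.00773), but 0.13 with the slide as a block (adjusted p = 0.399). The chromatin assembly subunits Chaf1a and Chaf1b, and Slbp, which binds histone messages, did not pass in any comparison in the 9-array fit. Chaf1a differed by -0.31 in hCA-Tumor against DMH mucosa (adjusted p = 0.0603), while Chaf1b differed by 0.22 (adjusted p = 0.0912). Chaf1a passed there without hCA-Notumor replicate 2, with normexp background correction and with each array centred on its median. It also passed with only the compared groups in the fit, with a trended and robust spread, and with probes well above background on all arrays. Chaf1b passed with the slide as a block, at 0.34 (adjusted p = 0.0236), and also with array weights, without DMH replicate 1 and with the arrays centred on the epithelium markers.

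The cyclins E, which start S phase, differed in opposite directions in hCA-Notumor mucosa. Ccne2 measured -2.17, -2.27 and -2.17 in hCA-Notumor mucosa, -3.03, -2.99 and -3.17 in hCA-Tumor mucosa and -2.83, -2.87 and -2.88 in DMH mucosa. The 3 groups did not overlap, and the hCA-Notumor arrays lay far above the others. Ccne2 rose by 0.65 ± 0.06 (SE) in hCA-Notumor against DMH mucosa (adjusted p = 0.00023) and was 0.86 ± 0.06 (SE) higher, or 1.81-fold, in hCA-Notumor than in hCA-Tumor mucosa (adjusted p = 5.87e-05), a call made in 23 of 23 alternatives with differences from 0.34 to 0.94. Both passed with slide as a block, at 0.62 and 0.76. With normexp background correction they were 0.28 and 0.34, and the first did not pass (adjusted p = 0.098). Its difference of -0.21 in hCA-Tumor against DMH mucosa (adjusted p = 0.0299) was lost with the slide as a block (adjusted p = 0.0837) and without hCA-Tumor replicate 1 or 3 or DMH replicate 1, 2 or 3 (adjusted p between 0.0561 and 0.0689). Ccne1 measured 0.58, 0.47 and 0.65 in hCA-Notumor mucosa, 0.74, 0.75 and 0.87 in hCA-Tumor mucosa and 0.79, 0.79 and 0.76 in DMH mucosa. Here the hCA-Notumor arrays were the lowest 3, and hCA-Tumor and DMH arrays overlapped. Ccne1 differed by -0.21 from DMH and by -0.22 from hCA-Tumor mucosa (adjusted p = 0.0317 and 0.0212); neither passed with the slide as a block (adjusted p = 0.0923 and 0.215), and they were lost without hCA-Notumor replicate 1 or 2 or DMH replicate 1, 2 or 3 (adjusted p between 0.0537 and 0.0917) and without hCA-Notumor replicate 1 or 2 (adjusted p between 0.0519 and 0.0614). E2f1, the activator of the S phase genes, measured -2.19, -2.13 and -2.11 in hCA-Notumor mucosa, -2.32, -2.08 and -2.49 in hCA-Tumor mucosa and -2.10, -2.33 and -2.25 in DMH mucosa, with all groups overlapping and no difference past the test.

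Among the promoters described above, the members with an E2F word held 7 higher and 1 lower call of 14 in hCA-Notumor against hCA-Tumor mucosa, with a median difference of 0.20, against 20% higher and 27.8% lower over all features. The members with a window and no E2F word held 5 higher and 2 lower calls of 23, with a median of -0.05. With slide as a block 2 of the 14 (Cdc6 and Pole2) and 4 of the 23 were higher, and with the deposited normalized values 1 of each (Mcm3 and Pola2). With arrays centred on the epithelium markers 0 of either were higher, and 6 of the 14 and 13 of the 23 were lower. In hCA-Tumor against DMH mucosa 6 of 14 and 6 of 23 were lower, against 15.2% of all features, with a median of -0.12 in both. With slide as a block 4 of the 14 and 7 of the 23 were lower, and with the epithelium centring 0 and 3. Without hCA-Tumor replicate 2, hCA-Tumor replicate 3 or DMH replicate 3, 3 of the 14 were lower, and 6, 6 and 7 of the 23. In hCA-Notumor against DMH mucosa 1 of 14 and 7 of 23 were lower, against 17.1% of all features, and 1 and 0 were higher, against 18.6%. The lower counts there were 0 and 3 with slide as a block. These counts carry no test.

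Taken over both hCA groups, the mean difference from DMH was lower for 10 members and higher for 2 (Gmnn and Ccne2), against 31.5% of all features called (13% lower, 18.4% higher). Lower were Rrm2, Cdc45, Cdc7, Fen1, Tk1, Pola2, Uhrf1, Mcm10, Rfc5 and Cdc6. Rrm2 had the lowest called value at -0.66 ± 0.05 (SE) (adjusted p = 0.000178), followed by Cdc45 at -0.45 ± 0.06 (SE) (adjusted p = 0.00132), and Gmnn was 0.30 higher (adjusted p = 0.00684). The median member differed by -0.08 and the median feature by 0.08. A fit with slide as a block called 9 lower and 2 higher, with 39.3% of all features called. The arrays of both hCA groups lay below all DMH arrays for 8 members, against 8.97% of all features, and above them for 1, against 10.9%. Of all calls 58.6% were higher, against 30.3% with the deposited normalized values. Without 1 array 5 to 10 were lower and 1 to 3 higher, the fewest without DMH replicate 3 (5 lower, 1 higher) or DMH replicate 2 (6 lower, 1 higher).

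Of 42 other fork and origin genes 15 were lower and 6 higher in hCA-Notumor against DMH mucosa, 16 lower and 3 higher in hCA-Tumor against DMH mucosa, and 11 lower and 8 higher in hCA-Notumor against hCA-Tumor mucosa, with medians of -0.15, -0.08 and -0.01. Over all features 17.1%, 15.2% and 27.8% were lower and 18.6%, 22.1% and 20% higher in these comparisons. The counts between the hCA groups lie near those shares. Esco2, which joins sister chromatids behind the fork, measured -1.84, -2.20 and -1.99 in hCA-Notumor mucosa, -1.35, -1.44 and -1.68 in hCA-Tumor mucosa and -1.24, -1.06 and -0.93 in DMH mucosa, with hCA-Notumor lowest and DMH highest. Esco2 fell by 0.93 in hCA-Notumor against DMH mucosa (adjusted p = 0.00148) and Dbf4, the activating partner of Cdc7, by 0.63 (adjusted p = 0.000366). Chtf8, a subunit of the alternative clamp loader, measured 0.54, 0.42 and 0.50 in hCA-Notumor mucosa, -0.33, -0.35 and -0.43 in hCA-Tumor mucosa and 0.27, 0.21 and 0.30 in DMH mucosa. The hCA-Tumor arrays of Chtf8 were far below the others, a difference of -0.63 from DMH mucosa (adjusted p = 0.000271), and hCA-Notumor stood 0.86 above hCA-Tumor mucosa (adjusted p = 4.27e-05). Pold2, a further subunit of polymerase delta, fell by 0.42 in hCA-Tumor against DMH mucosa (adjusted p = 0.00551). The lower count of hCA-Notumor against DMH mucosa was 7 without hCA-Notumor replicate 2 or DMH replicate 2 and 8 without hCA-Notumor replicate 1 or 3 or DMH replicate 3, and the higher count was 2 without hCA-Notumor replicate 1 or 3 and 3 without DMH replicate 2 or 3. In hCA-Tumor against DMH mucosa 8 were lower without hCA-Tumor replicate 2, and 9 were lower and 1 higher without DMH replicate 3. With the arrays centred on the epithelium markers 22 of these 42 genes were lower in hCA-Notumor and 1 in hCA-Tumor mucosa against DMH, and 29 were lower in hCA-Notumor against hCA-Tumor mucosa. That centring called 34.1%, 33% and 59.2% of all features in these comparisons, and 21%, 83.3% and 10.1% of those calls were higher.

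Of 20 other measured genes of nucleotide synthesis 4 were lower and 1 higher in hCA-Notumor against DMH mucosa, 10 lower and 1 higher in hCA-Tumor against DMH mucosa, and 5 lower and 9 higher in hCA-Notumor against hCA-Tumor mucosa. The shares over all features were 17.1%, 15.2% and 27.8% lower and 18.6%, 22.1% and 20% higher in the same order. The falls in hCA-Tumor against DMH mucosa included Ctps2, a CTP synthase (by 0.38, adjusted p = 0.00294), Mthfd1 of the folate cycle (by 0.37, adjusted p = 0.00729) and Umps of pyrimidine synthesis (by 0.36, adjusted p = 0.00478). Umps was 0.56 higher in hCA-Notumor than in hCA-Tumor mucosa (adjusted p = 0.000533). Larger changes were also called: 1 gene of this list was at least 2-fold lower in hCA-Notumor against DMH mucosa, and 1 against hCA-Tumor mucosa. The lowest differences of the list there were -1.21 and -1.63. The 4 lower calls of hCA-Notumor against DMH mucosa were lost without hCA-Notumor replicate 2 or 3 or DMH replicate 3, and 2 were left without DMH replicate 2; both single higher calls were lost without hCA-Notumor replicate 1 or 3 or DMH replicate 3, the one of hCA-Notumor also without hCA-Tumor replicate 2 or DMH replicate 2 and the one of hCA-Tumor also without hCA-Notumor replicate 2, hCA-Tumor replicate 1 or 2 or DMH replicate 1. Between the hCA groups 3 were lower without hCA-Notumor replicate 1 or 3, hCA-Tumor replicate 1 or 2 or DMH replicate 3. With arrays centred on the epithelium markers 8 of the 20 were lower in that comparison and 0 were higher (0 also at an unadjusted p under 0.05), and limma called 0 in hCA-Tumor against DMH mucosa (2 lower and 3 higher at an unadjusted p under 0.05).

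The regulators of the G1 to S switch, 23 of 28 measured, were lower for 3 and higher for 5 genes in hCA-Notumor against DMH mucosa, lower for 7 and higher for 2 in hCA-Tumor against DMH mucosa, and lower for 5 and higher for 10 in hCA-Notumor against hCA-Tumor mucosa (10 lower and 1 higher with arrays centred on the epithelium markers). Among all features 17.1%, 15.2% and 27.8% were lower and 18.6%, 22.1% and 20% higher in the same order. The counts of hCA-Notumor against DMH mucosa lie near those shares. Without hCA-Notumor replicate 1 or DMH replicate 2 only 2 were higher in hCA-Notumor against DMH mucosa, and 3 without hCA-Notumor replicate 3. The 2 higher calls of hCA-Tumor against DMH mucosa were lost without any 1 hCA-Tumor array or DMH replicate 2 or 3, and 1 was left without hCA-Notumor replicate 3. Between the hCA groups 3 were lower without hCA-Notumor replicate 1 or 2 and 2 without hCA-Tumor replicate 2. E2f2, an activating E2F, measured 1.62, 1.32 and 1.48 in hCA-Notumor mucosa, 0.29, 0.48 and 0.51 in hCA-Tumor mucosa and 1.29, 1.23 and 1.16 in DMH mucosa. The hCA-Tumor arrays were the lowest by a wide gap. E2f2 fell by 0.80 in hCA-Tumor against DMH mucosa (adjusted p = 0.000754) and was 1.05 ± 0.09 (SE) higher in hCA-Notumor than in hCA-Tumor mucosa (adjusted p = 0.000157). Cdk4, the cyclin D kinase, measured 2.10, 2.0 and 1.99 in hCA-Notumor mucosa, 1.51, 1.65 and 1.58 in hCA-Tumor mucosa and 2.26, 2.17 and 2.18 in DMH mucosa, with no overlap between the groups. Cdk4 fell by 0.63 in hCA-Tumor against DMH mucosa (adjusted p = 0.000332). Myc, a growth regulator, measured 2.29, 2.22 and 2.25 in hCA-Notumor mucosa, 2.58, 2.49 and 2.40 in hCA-Tumor mucosa and 2.85, 2.86 and 2.88 in DMH mucosa. All DMH arrays of Myc exceeded all hCA arrays; it fell by 0.61 in hCA-Notumor mucosa (adjusted p = 0.000218) and by 0.38 in hCA-Tumor mucosa (adjusted p = 0.00184), each against DMH. E2f7, a repressing E2F, fell by 0.61 and Ccnd2 (cyclin D2) rose by 0.47 in hCA-Notumor against DMH mucosa (adjusted p = 0.00219 and 0.00149).

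Mitosis genes act after S phase. Of 29 measured mitosis genes 28 were lower in hCA-Notumor against DMH mucosa, with a median difference of -0.88. In hCA-Tumor against DMH mucosa 17 were lower, with a median of -0.39, and in hCA-Notumor against hCA-Tumor mucosa 20 were lower and 1 higher, with a median of -0.49. Over all features 17.1%, 15.2% and 27.8% were lower in these 3 comparisons. Of these mitosis genes Aurkb was well above background on 0 of 3 hCA-Notumor, 3 of 3 hCA-Tumor and 2 of 3 DMH arrays. It passed the filter on dim probes through the hCA-Tumor group alone, and its hCA-Notumor values lie near background. Plk1, a kinase of mitotic entry, measured -0.07, -0.19 and 0.13 in hCA-Notumor mucosa, 1.06, 0.98 and 0.82 in hCA-Tumor mucosa and 1.01, 1.02 and 1.12 in DMH mucosa. The hCA-Notumor arrays were the lowest 3, and the hCA-Tumor and DMH arrays overlapped. Plk1 fell by 1.10 in hCA-Notumor against DMH mucosa (adjusted p = 0.000208) and by 1.0 against hCA-Tumor mucosa (adjusted p = 0.000226). Ccnb2, whose promoter is shown above, measured 1.12, 1.09 and 1.32 in hCA-Notumor mucosa, 1.85, 1.78 and 1.70 in hCA-Tumor mucosa and 2.17, 2.17 and 2.14 in DMH mucosa. Its groups did not overlap, hCA-Notumor being lowest and DMH highest, and it fell by 0.98 and 0.39 in hCA-Notumor and hCA-Tumor mucosa against DMH (adjusted p = 9.89e-05 and 0.00552). Top2a, the topoisomerase that unlinks chromosomes, measured -1.10, -1.10 and -0.92 in hCA-Notumor mucosa, -1.07, -1.21 and -1.24 in hCA-Tumor mucosa and -0.40, -0.22 and -0.05 in DMH mucosa, so that both hCA groups lay below DMH and overlapped each other. Top2a fell by 0.82 in hCA-Notumor and 0.95 in hCA-Tumor mucosa against DMH (adjusted p = 0.000858 and 0.000542). None was higher than in DMH mucosa in either hCA group by limma, 0 of them also at an unadjusted p under 0.05, in the 9-array fit. In hCA-Notumor against DMH mucosa 1 was higher at an unadjusted p under 0.05 with slide as a block, with only the compared groups in the fit, with array weights and without hCA-Tumor replicate 3; it passed in all of these but the slide block. Without hCA-Tumor replicate 3, 2 were higher in hCA-Notumor against hCA-Tumor mucosa. With slide as a block 25, 15 and 14 of the 29 genes were lower in the 3 comparisons, and with arrays centred on the epithelium markers 28, 6 and 26. The difference between the 2 lists was not tested.

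**Figure D3:**
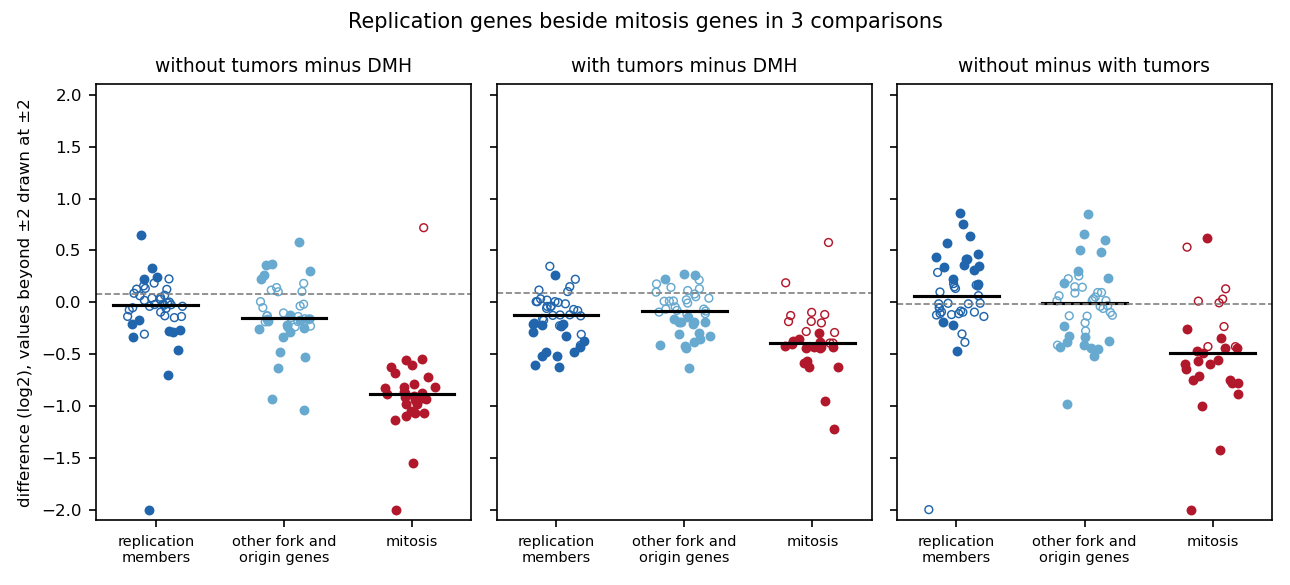
Differences (log2, vertical axis) of the 43 measured replication members, 42 other fork and origin genes and 29 mitosis genes in the 3 comparisons. Filled points passed the test, black lines are list medians, the dashed line is the median of all features, and values beyond 2 are drawn at the edge. The mitosis genes lie below the dashed line most clearly without tumors against DMH, where the median is -0.02 for the members and -0.88 for the mitosis genes.

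Slide and group overlap in this design. The slides link each hCA group to DMH arrays only, and the block then gives the same differences as the comparison within the shared slide. Within slide 1 the hCA-Notumor arrays face DMH replicate 1 alone, and 3 members were lower and 1 higher. Within slide 2 hCA-Tumor replicates 1 and 2 face DMH replicates 2 and 3, and 12 members were lower and 3 higher, again Gmnn, Orc6 and Chaf1b. The block removed the Pola1 difference and moved Mcm2 and Pole2, the second subunit of polymerase epsilon, from -0.01 and -0.01 without it to 0.35 and 0.37 with it in hCA-Notumor minus hCA-Tumor. Without DMH replicate 1 and hCA-Tumor replicate 3 together, a choice made after seeing the data, 11 members were lower and 8 higher in hCA-Notumor against DMH mucosa, 12 lower and 3 higher in hCA-Tumor against DMH mucosa, and 14 higher and 5 lower in hCA-Notumor against hCA-Tumor mucosa. Once DMH replicate 1 is left out, alone or with the other array, no slide holds both hCA-Notumor and DMH arrays. Slide and group cannot be told apart in that comparison, where 60.2% of all features were called without both arrays, against 35.6% in the 9-array fit. For hCA-Tumor against DMH mucosa this choice gives the same differences as the comparison within slide 2, so it adds nothing to it.

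**Figure D4:**
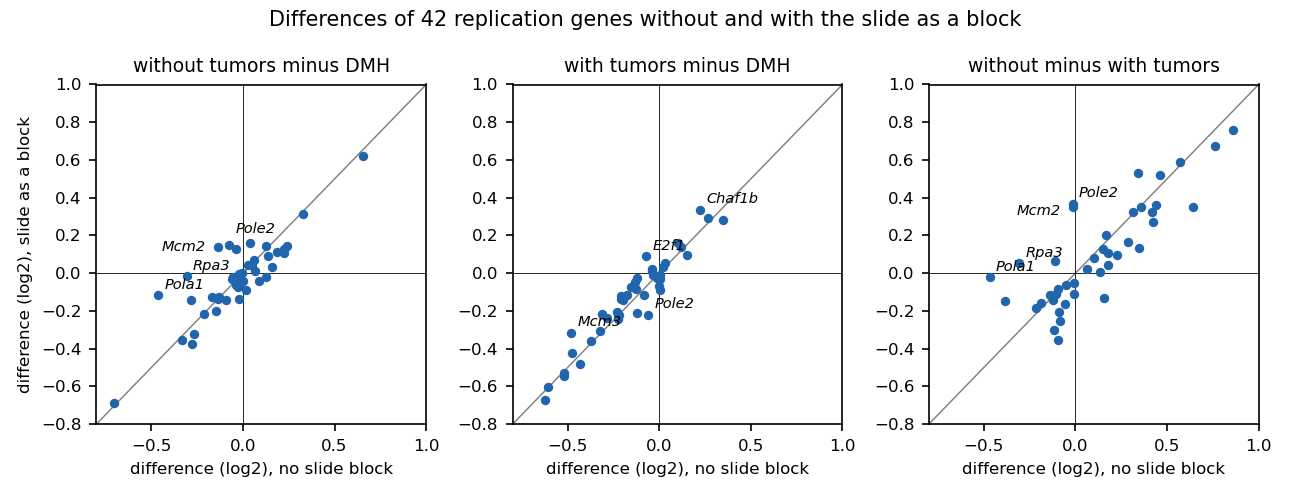
Difference of 42 members (log2) with the slide as a block (vertical axis) against that without a block (horizontal axis) in the 3 comparisons, Prim2 being left out. Points on the diagonal did not move. The 4 members furthest from the diagonal are named in each panel, among them Pola1, which moved from -0.46 without a block to -0.11 with it in the left panel.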

How the data were processed

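RNA was measured in mouse colonic mucosa, with 9 arrays in 3 groups of 3. Intensity values were deposited by the authors as scanner output that was background-subtracted within each array, per the file headers, with Agilent Feature Extraction 10.5.1.1 named in the submitters' processing notes. The deposited log2 table of 23726 probes matched log2 intensity minus the array median when set against the scanner values, and was used as an alternative.

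Outlier-flagged spots were left out (383 probes touched), and no spot was saturated. The log2 intensity minus the array's 75th percentile was analysed. A probe was kept where some group had it well above background on each of its 3 arrays (27192 of 41174), and the brightest kept probe stood for a gene. Names came from RefSeq GRCm38.p6: 25097 probes had 1 symbol and 16077 none. limma 3.58.1 in R 4.3.3 was fitted to all 9 arrays without a block (lmFit, eBayes), with Benjamini-Hochberg adjustment over 21456 features in each comparison and a threshold of 0.05. Per-array values are given for the called members of each role with the largest differences and for a panel of well-known members; Mcm5 was added for its promoter.

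The members and lists were chosen with earlier results of these data known. Replicate numbers do not pair the samples: same-numbered arrays deviated from their group means with correlations between -0.56 and 0.22. The alternatives were other background correction, scaling, filters, probe rules, spread models, blocks for slide and replicate, and leaving out each array. Centring on epithelium markers and leaving out both arrays that stood apart were added after seeing the data. Scripts were tested on simulated data.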

Additional observations from a re-analysis of the deposited data

Results flagged for a closer look

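For 17 members the difference of the 3% calcium diet from DMH was itself different between mucosa without and with tumors, since the DMH arrays cancel and the test is that of hCA-Notumor against hCA-Tumor mucosa. The difference without tumors minus that with tumors, in log2 units, was positive for Ccne2 at 0.86, Gins2 at 0.76, Mcm3 at 0.64, Pola2 at 0.57, Cdc6 at 0.46, Fen1 at 0.44, Mcm6 at 0.42, Pcna at 0.42, Mcm5 at 0.36, Dnmt1 at 0.35, Cdc45 at 0.34, Uhrf1 at 0.32, Pold1 at 0.23 and Tk1 at 0.18. It was negative for Pola1 at -0.47, Ccne1 at -0.22 and Rpa1 at -0.19. The background is the 47.7% of all features that passed the same test. Of these members, Ccne2, Gins2, Pola2, Pcna, Cdc6 and Cdc45 passed also with slide as a block, and with arrays centred on the epithelium markers only Ccne2 and Gins2 stayed positive past the test.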

How the results depend on the processing

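In hCA-Notumor against DMH mucosa, where 9 members were lower and 4 higher, the lower calls numbered 3 with the slide as a block, within slide, with normexp and with no filter on dim probes, 5 with the replicate block, 2 with the deposited log2 values 1 under a rule of 2-fold at an unadjusted p under 0.05 (the 2-fold rule), and 11 without both DMH replicate 1 and hCA-Tumor replicate 3. The higher calls numbered 1 with the slide as a block, within slide, with normexp and with epithelium centring, 2 with no filter, 9 with array weights, 7 with a trended and robust spread, 8 without both arrays, and 0 with the deposited values (1 unadjusted) and the 2-fold rule. Leaving out 1 array gave 2 to 9 lower and 2 to 7 higher. The share of all features called moved as well, from 35.6% in the 9-array fit. It was 27.4% with the slide as a block, 18.1% with normexp, 17.4% with no filter and 28.4% with the replicate block. With the deposited values it was 18.1%, with the 2-fold rule 6.52% and with epithelium centring 34.1%. It was 63.5% with array weights, 60.2% without both arrays and 24.9% to 44.8% without 1 array.

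In hCA-Tumor against DMH mucosa, where 15 were lower and 1 higher, lower calls numbered 6 with the deposited values, 4 with epithelium centring and 0 with the 2-fold rule. Higher calls numbered 3 with the slide as a block, within slide, with array weights, with epithelium centring and without both arrays, 2 with the compared groups alone, and 0 with normexp (3 unadjusted), median centring (0 unadjusted), the deposited values (0 unadjusted) and the 2-fold rule. Leaving out 1 array gave 10 to 16 lower and 0 to 3 higher.

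In hCA-Notumor against hCA-Tumor mucosa, where 3 were lower and 14 higher, lower calls numbered 22 with epithelium centring, 5 with array weights and without both arrays, 1 with the 2-fold rule, and 0 with normexp (6 unadjusted), median centring (2 unadjusted), the deposited values (1 unadjusted) and no filter (5 unadjusted). Higher calls numbered 8 with the slide as a block, 9 with normexp, 4 with the deposited values, 2 with epithelium centring and 0 with the 2-fold rule. Leaving out 1 array gave 1 to 4 lower and 12 to 15 higher. The share of all features called was 47.7% in the 9-array fit. It was 59.2% with epithelium centring, only 10.1% of these calls being higher, 70.6% with array weights and 65.7% without both arrays. With the slide as a block it was 31.8%, with normexp 29.7% and with the deposited values 26.1%. It was 44% with median centring, 26.7% with no filter, 8.1% with the 2-fold rule and 39.5% to 58.4% without 1 array. Epithelium centring lowered the differences of all features alike, their median going from -0.01 to -0.38. Small positive differences thus fell below 0: Gmnn (-0.30, adjusted p = 0.0369), Tyms (-0.22, adjusted p = 0.0488), Mcm5 (-0.0084), Cdc45 (-0.024), Pold1 (-0.14), Tk1 (-0.19), Uhrf1 (-0.049) and Dnmt1 (-0.019). The slide as a block turned the direction of Mcm2 (0.35) and Pole2 (0.37). With the block the hCA groups are compared through DMH arrays of the same slide, for hCA-Notumor through DMH replicate 1 alone. These 2 differences thus depend on that array, and a cause beyond that was not tested.

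For the mean of both hCA groups, where 10 were lower and 2 higher, lower calls numbered 6 with the replicate block, 3 with normexp, 2 with the deposited values and with epithelium centring, 4 with no filter, 11 without both arrays and 0 with the 2-fold rule. Higher calls numbered 1 with normexp, quantile normalization, median centring, the mean of a gene's probes and a trended and robust spread, 4 with array weights, and 0 with the deposited values (0 unadjusted), epithelium centring (1 unadjusted) and the 2-fold rule. Leaving out 1 array gave 5 to 10 lower and 1 to 3 higher.

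All counts are limma's. Replicate numbers do not pair the arrays, and the replicate block left 12 lower calls in hCA-Tumor against DMH mucosa and 14 higher in hCA-Notumor against hCA-Tumor mucosa. With 3 arrays a group the number of arrays limits the precision, and Prim2, near background on 1 array, has no reliable fold. Slide and group can be separated only through the DMH arrays, and within slide 1 through DMH replicate 1 alone.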

Other observations

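Of 8 measured myeloid markers 5 were lower in hCA-Notumor and 7 in hCA-Tumor mucosa against DMH, with summed levels of 4.69 to 4.78 in hCA-Notumor, 4.54 to 4.69 in hCA-Tumor and 4.96 to 4.99 in DMH mucosa. Among these markers S100a8 was well above background on 0 of 3 hCA-Notumor arrays. Of 6 germinal centre B cell markers 4 and 2 were lower in the same comparisons, with levels of 1.95 to 2.16, 2.15 to 2.25 and 2.20 to 2.29 in the same order of groups. Over all features 17.1% and 15.2% were lower there, and 18.6% were higher in hCA-Notumor against DMH mucosa. Of 8 T cell markers 3 were higher in hCA-Notumor against DMH mucosa, and the levels ran from 2.26 to 2.44, from 2.05 to 2.17 and from 2.02 to 2.15. These levels are log2 of the summed scaled signals, and their part in the differences of the replication genes was not tested.

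A second kept probe was measured for 8 members. Its difference had the sign of the brighter probe in 7 of 8 in hCA-Notumor minus DMH, 8 of 8 in hCA-Tumor minus DMH and 7 of 8 in hCA-Notumor minus hCA-Tumor. For Cdc7 the probes differed by 0.55 from each other in the last of these.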
